A study of Rattus norvegicus with 28 samples.

Results

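Epithelial antimicrobial lectins and lipocalin are described here through Reg3b, Reg3g, Lcn2, Slpi, Pigr and Chi3l1, 6 of the 17002 genes in the deposited table. Members were all rows whose gene name is Reg3b, Reg3g, Lcn2, Slpi, Ltf, Pigr or Chi3l1. No row was found under the name Ltf (lactoferrin, an iron-binding protein of secretions and neutrophil granules), so 6 of the 7 names were analysed and Ltf was not analysed here. The list was selected on measured values, since the deposited levels of these genes in the 8 groups were known when it was drawn up, without a threshold, so levels and differences of the 6 genes are given as a description, without p-values. The tissue was Sprague Dawley rat lung, taken whole from the upper lobe on the right side, as 28 libraries in 8 groups. Ventilation was volume-controlled, with constant tidal volumes (VCV) or with variable tidal volumes (noisy). The ventilated groups were acute_VCV (n = 3) and acute_noisy (n = 4), ventilated after acute lung injury, chronic_VCV (n = 3) and chronic_noisy (n = 3), ventilated after chronic lung injury, and healthy_VCV (n = 4) and healthy_noisy (n = 3), ventilated with no earlier injury. The unventilated groups were control_chronic (n = 5), taken 14 days after chronic injury was induced, and control_blank (n = 3), with no injury. The labels used here do not say how either injury was made, how long ventilation lasted, or the age or sex of the rats. There is no group with acute injury and no ventilation.

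The genes code for secreted or surface proteins with which lung and gut linings meet microbes. Reg3b and Reg3g are small secreted C-type lectins of the regenerating islet-derived family, known in mouse gut and airway for binding and killing bacteria. Lcn2 is lipocalin 2, which withholds iron by binding bacterial siderophores and is made by stimulated epithelium and by neutrophils. Slpi is the secretory leukocyte protease inhibitor, which blocks neutrophil elastase and also kills bacteria. Chi3l1 is a chitinase-like lectin without enzyme activity, made by macrophages, neutrophils and epithelium in inflamed tissue. Pigr is the polymeric immunoglobulin receptor, which carries IgA across epithelium into secretions. In mouse and human airway cells, interleukins of the IL-17 and IL-22 families, IL-1 and IL-6 are known to raise several of these genes through NF-kB, C/EBP and STAT3 factors.

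Depth was 6024093 to 31923838 reads per library, and deposited values are reads divided by a size factor of each library, so that 1 read is worth 0.553 to 3.18 units. Values are comparable between libraries for a gene but not between genes, since no transcript lengths were used. Sample titles open with a number whose leading digits are 12, 14, 15 or 18, a number series whose meaning the labels do not give. Series 12 holds control_blank and acute_VCV, series 18 holds control_chronic, and series 14 and 15 hold the other groups, with acute_noisy split 2 and 2. Apart from acute_VCV against control_blank, comparisons with unventilated lungs therefore run across series, where series and group cannot be told apart. Among the ventilated groups, chronic_noisy lies wholly in series 14, and chronic_VCV and healthy_noisy lie wholly in series 15. Acute_VCV against healthy_VCV, acute_noisy against acute_VCV, chronic_noisy against chronic_VCV and chronic_noisy against healthy_noisy therefore compare groups with no series in common. For acute_VCV, the only ventilated group in series 12, series and group cannot be told apart in these comparisons. The tissue showed lung markers in every library. The summed value of 4 alveolar type 2 markers was 245929 to 790616, and that of 5 club and airway secretory markers was 92044 to 1324574. In whole tissue, fewer cells of a type and less RNA per cell cannot be told apart.

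Reg3b, Reg3g and Lcn2 had the largest ratios of the acute_VCV mean to the control_blank mean among the 6 genes, and the start regions of these genes are shown for that reason. RefSeq sequences of the GRCr8 build, from 250 bases before to 50 bases after the gene start, were found for 5 of the 6 genes, Slpi being the exception. The Reg3b window is chr4:112419526-112419825 on the plus strand, the Reg3g window is chr4:112484689-112484988 on the minus strand, and the Lcn2 window is chr3:36081731-36082030 on the minus strand. Capitals mark matches to the motifs searched on both strands. The STAT letters were TTCNNNGAA, which read the same on either strand. The NF-kB letters were GGGA, any 4 bases and then CC. The C/EBP letters were TTGCNNCAA, and the TATA letters were TATAAA.
Reg3b: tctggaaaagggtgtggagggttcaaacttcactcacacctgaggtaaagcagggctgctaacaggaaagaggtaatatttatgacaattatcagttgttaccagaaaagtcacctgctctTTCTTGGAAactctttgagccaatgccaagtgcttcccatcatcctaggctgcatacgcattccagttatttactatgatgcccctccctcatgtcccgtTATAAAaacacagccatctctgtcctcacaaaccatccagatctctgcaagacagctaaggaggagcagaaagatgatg
Reg3g: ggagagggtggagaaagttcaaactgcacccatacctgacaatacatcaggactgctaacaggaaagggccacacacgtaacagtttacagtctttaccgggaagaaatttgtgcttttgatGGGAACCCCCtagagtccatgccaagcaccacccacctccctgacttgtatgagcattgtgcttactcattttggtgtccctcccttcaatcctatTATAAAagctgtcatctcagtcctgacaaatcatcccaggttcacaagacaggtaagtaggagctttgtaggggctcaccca
Lcn2: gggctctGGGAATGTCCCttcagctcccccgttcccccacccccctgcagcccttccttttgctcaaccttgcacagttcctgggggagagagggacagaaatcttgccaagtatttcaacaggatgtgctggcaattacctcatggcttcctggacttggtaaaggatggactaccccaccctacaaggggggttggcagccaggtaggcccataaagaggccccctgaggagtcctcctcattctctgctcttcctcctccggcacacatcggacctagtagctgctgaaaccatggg
Reg3b held a STAT match from position -129 to -121 before the gene start and a TATA match from -29 to -24. Reg3g held an NF-kB match from -128 to -119 and a TATA match from -32 to -27. Lcn2 held a pair of overlapping NF-kB matches, 1 on each strand, from -243 to -233. Pigr held 2 NF-kB matches and Chi3l1 held 1 C/EBP match, TTGCTTCAA from -100 to -92. Of 27457 rat windows of the same length, 8.68% held the STAT letters, 19.6% the NF-kB letters, 2.11% the C/EBP letters and 14.3% the TATA letters. A match describes letters only and says nothing of binding.

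Reg3b was at most 17.4 in lungs without acute injury and stood above 100 in 5 of the 7 acutely injured lungs. Its value was 124, 164 and 236 in acute_VCV. In acute_noisy it was 173 and 126 in the series 14 libraries, 047 and 050, but 0.90 and 1.22 in the series 15 libraries, 046 and 053, which is 1 read each. The acute_noisy group thus splits into a pair like acute_VCV and a pair at the level of unventilated lungs. Values in the other ventilated groups were 0 in all 3 chronic_VCV libraries, 0 to 5.57 in chronic_noisy, 0 to 4.97 in healthy_VCV, and 0, 1.21 and 17.4 in healthy_noisy. Unventilated lungs had 0 to 1.98 in control_chronic and 0.81 to 4.79 in control_blank. A count of 0 in chronic_VCV allows up to 3 reads in a library, which is 3.04 to 4.59 units there. The acute_VCV mean was 174 ± 56.7 and the control_blank mean 3.16 ± 2.08 (SD, n = 3 each), a ratio of 55.3, where the control_blank libraries hold 14 Reg3b reads in all. On the log2(value + 1) scale the difference was 5.51 ± 1.32 (SE) for acute_VCV against control_blank, and 6.05 ± 1.23 for acute_VCV against healthy_VCV, with no overlap of groups in either. Of all 14908 genes tested, 23.1% and 29.6% were also higher without overlap in these comparisons. For acute_noisy against control_blank the Reg3b difference was 2.24 ± 1.23, with overlapping groups. The order of group means was acute_VCV, acute_noisy, healthy_noisy, control_blank, chronic_noisy, healthy_VCV, control_chronic and chronic_VCV, and every neighbouring pair in it overlapped.

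Reg3g, the close relative of Reg3b, followed the same libraries at lower read numbers. Its value was 163, 52.95 and 60.01 in acute_VCV. In acute_noisy it was 43.9 and 30.4 in libraries 047 and 050, and 0 in libraries 046 and 053, where 3 reads would be 2.71 and 3.67 units. It was 0 in chronic_VCV, 0.80 to 2.69 in chronic_noisy, 0.79 to 4.14 in healthy_VCV, and 0, 0 and 16.4 in healthy_noisy, against 0 to 11.5 in control_chronic and 0 to 4.79 in control_blank. The single healthy_noisy library with Reg3g, 078, is also the one with the highest Reg3b and Lcn2 of that group. Acute_VCV averaged 91.9 ± 61.4 and control_blank 2.95 ± 2.58 (SD, n = 3 each), and the log2 difference was 4.72 ± 1.29 with no overlap. In the comparison of ventilation modes after acute injury, acute_noisy lay below acute_VCV in every library, by -3.73 ± 1.20 on the log2 scale, and by -1.12 when acute_noisy was limited to its series 14 libraries. Reg3a, a further lectin of the family that is not a member, had 8.29 to 15.03 in acute_VCV, 9.94 and 10.97 in acute_noisy 047 and 050, and 0 in 046, 053 and control_blank. The 3 genes belong to 1 family, and whether reads were shared between them was not tested, so their values are uncertain to that extent.

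**Figure D1:**
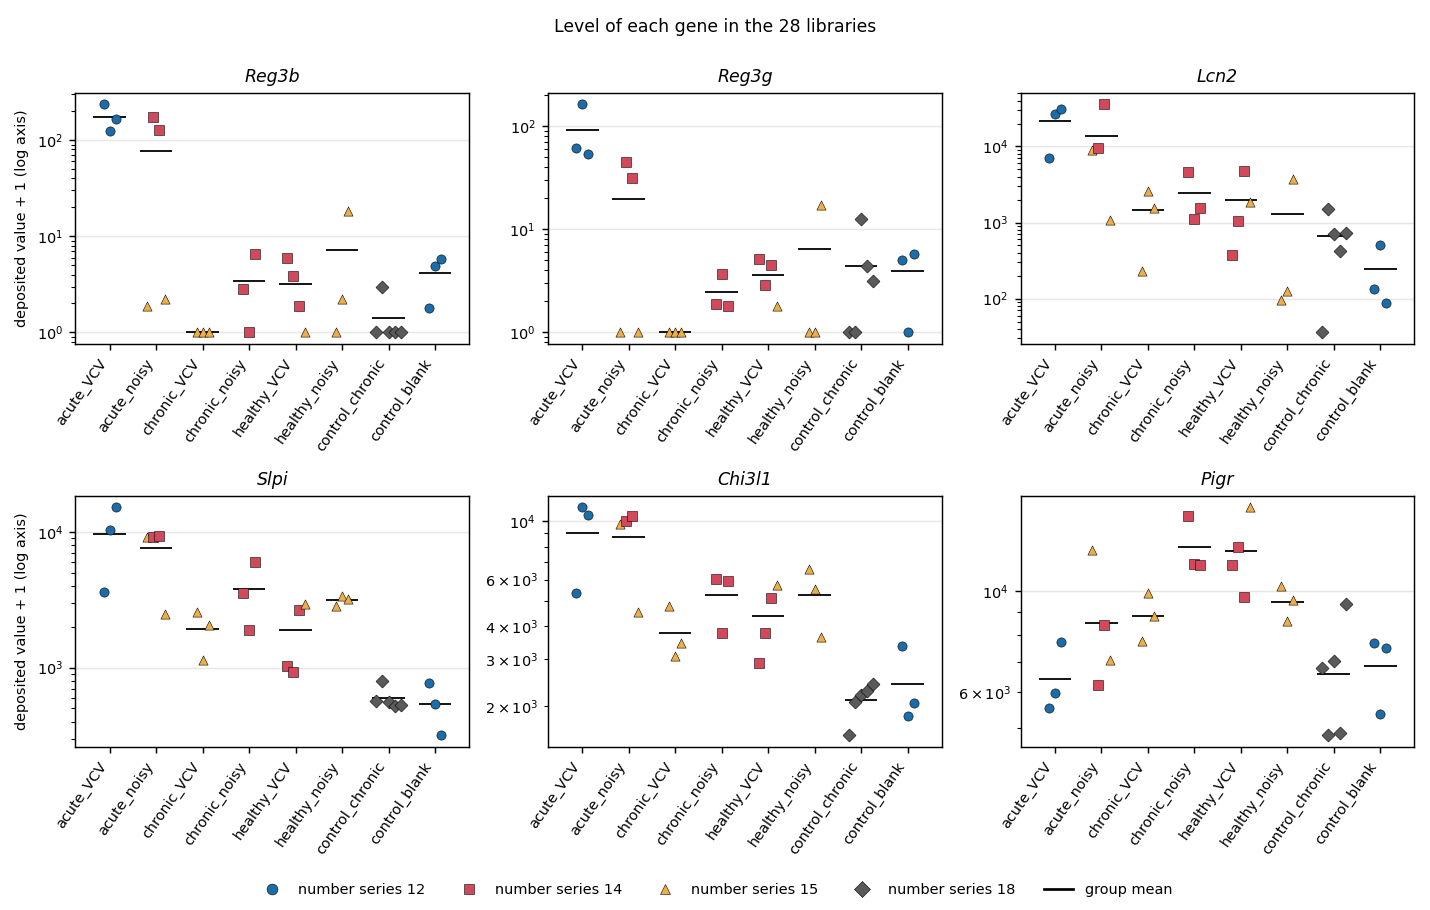
Level of each gene in the 28 libraries, as deposited value + 1 on a log axis, by group. Each point is a library, its shape and colour give the number series, and the bar is the group mean. Reg3b and Reg3g are high in acute_VCV and in the 2 acute_noisy libraries of series 14, Slpi and Chi3l1 are higher in most ventilated lungs than in the unventilated groups, and Pigr varies least.

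Of the 6 genes, Lcn2 had the largest log2 difference between acute_VCV and control_blank. Its value was 7076, 26649 and 31323 in acute_VCV, and 9610, 36013, 8941 and 1095 in acute_noisy libraries 047, 050, 046 and 053. Chronic_VCV had 231, 1535 and 2571, and chronic_noisy had 1105, 1547 and 4648. Healthy_VCV had 374, 1037, 1876 and 4719, while healthy_noisy had 94.1, 127 and 3699. Unventilated lungs had 34.95, 419, 697, 721 and 1501 in control_chronic and 86.3, 134 and 502 in control_blank. Both acutely injured groups lay above every control_blank library, and all other ventilated groups overlapped the unventilated group they are set against. Of all tested genes, 23.1% in acute_VCV and 24.3% in acute_noisy also lay above every control_blank library. Acute_VCV averaged 21683 ± 12863 and control_blank 241 ± 227 (SD, n = 3 each), a ratio of 90.1. The log2 difference was 6.64 ± 1.39, the 7th highest of the 14908 genes tested, and it was 5.40 ± 1.30 for acute_noisy against control_blank. Uninjured ventilated lungs differed from control_blank by 2.91 ± 1.30 under constant and by 0.98 ± 1.39 under variable tidal volumes. Chronically injured ventilated lungs differed from control_chronic by 1.25 ± 1.24 under constant and by 2.29 ± 1.24 under variable tidal volumes. The spread within a group was wide, and healthy_noisy alone ran from 94.1 to 3699. In the order acute_VCV, acute_noisy, chronic_noisy, healthy_VCV, chronic_VCV, healthy_noisy, control_chronic and control_blank, every neighbouring pair overlapped.

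Slpi was higher in all 6 ventilated groups than in their unventilated group, with no overlap in any of those 6 comparisons. In each of them alone, 10.3% (chronic_VCV) to 30.2% (healthy_VCV) of all tested genes were also higher without overlap. The Slpi value was 3582, 10325 and 15242 in acute_VCV, and 9152, 9389, 9189 and 2502 in acute_noisy libraries 047, 050, 046 and 053. Chronic_VCV had 1130, 2066 and 2558, and chronic_noisy had 1908, 3554 and 5972. Healthy_VCV had 936, 1025, 2664 and 2927, and healthy_noisy had 2838, 3226 and 3378. Control_chronic had 525 to 791 and control_blank had 316, 541 and 764. The lowest ventilated library, at 936, thus lay above the highest unventilated library, at 791. The log2 difference from control_blank was 4.02 ± 0.54 for acute_VCV, 3.71 ± 0.51 for acute_noisy, 1.70 ± 0.51 for healthy_VCV and 2.63 ± 0.54 for healthy_noisy. From control_chronic it was 1.63 ± 0.49 for chronic_VCV and 2.55 ± 0.49 for chronic_noisy. Acute_VCV lay above healthy_VCV by 2.32 ± 0.51 with no overlap, while acute_noisy overlapped healthy_noisy, at 1.09 ± 0.51. Slpil2, a gene named as a relative of Slpi that may share reads with it, averaged 445 ± 350 in acute_VCV, 686 ± 478 in acute_noisy and 29.6 ± 16.2 in control_blank.

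Chi3l1 had its highest group means in acutely injured lungs, at like levels under either mode of ventilation, but these groups overlapped the uninjured ventilated ones. Its value was 5330, 10495 and 11270 in acute_VCV, and 9956, 10458, 9711 and 4540 in acute_noisy libraries 047, 050, 046 and 053. Chronic_VCV had 3089 to 4762, chronic_noisy 3759 to 6047, healthy_VCV 2890 to 5735 and healthy_noisy 3645 to 6606. Unventilated lungs had 1544 to 2427 in control_chronic and 1836, 2052 and 3365 in control_blank. Ventilated groups overlapped their unventilated group only in healthy_VCV, whose lowest library, at 2890, lay below the highest control_blank library. In each of the other comparisons alone, 10.3% (chronic_VCV) to 24.3% (acute_noisy) of all tested genes were also higher without overlap. Log2 differences were 1.88 ± 0.34 for acute_VCV, 1.82 ± 0.31 for acute_noisy, 0.86 ± 0.31 for healthy_VCV and 1.13 ± 0.34 for healthy_noisy against control_blank. They were 0.83 ± 0.30 for chronic_VCV and 1.30 ± 0.30 for chronic_noisy against control_chronic. Between ventilated lungs, acute_VCV lay above healthy_VCV by 1.02 ± 0.31 and acute_noisy above healthy_noisy by 0.69 ± 0.31, both with overlap.

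Pigr had another order of groups, with acute_VCV at the bottom. Its value was 5547, 5980 and 7726 in acute_VCV and 6214, 7075, 8411 and 12308 in acute_noisy. Chronic_VCV had 7779 to 9924, chronic_noisy 11433 to 14629, healthy_VCV 9727 to 15291 and healthy_noisy 8589 to 10271. Control_chronic had 4820 to 9391 and control_blank had 5381, 7497 and 7678. Acute_VCV overlapped control_blank, with a log2 difference of -0.09 ± 0.24, and lay below healthy_VCV in every library, by -0.93 ± 0.22. Healthy_VCV lay above control_blank by 0.84 ± 0.22 and healthy_noisy by 0.48 ± 0.24, both without overlap. Chronic_noisy lay above control_chronic by 0.96 ± 0.21 without overlap, and chronic_VCV by 0.46 ± 0.21 with overlap. Of all tested genes, 30.2% in healthy_VCV, 19.5% in healthy_noisy and 22.4% in chronic_noisy were also above the unventilated group without overlap. In acute_VCV against healthy_VCV 30.0% were lower without overlap. Pigr and Lcn2 therefore had opposite signs in acute_VCV against healthy_VCV, where Lcn2 differed by 3.73 ± 1.30.

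**Figure D2:**
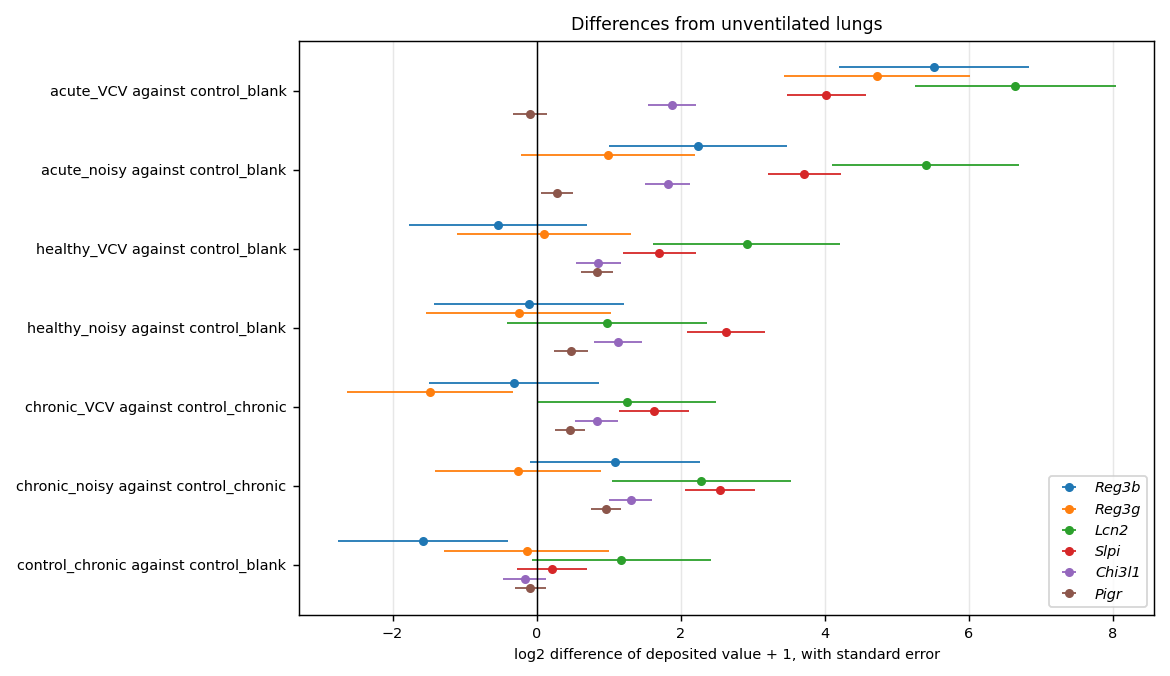
Log2 difference of deposited value + 1, with its standard error as a bar, for each gene in 7 comparisons with unventilated lungs. Slpi and Chi3l1 lie to the right of 0 in all 6 comparisons of ventilated lungs, Reg3b and Reg3g each lie further from 0 in acute_VCV than in their other 6 comparisons, and control_chronic against control_blank runs from -1.58 to 1.18.

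Counts past the threshold (limma on all 14908 genes, Benjamini-Hochberg adjusted p under 0.05) are set beside the share of all tested genes called in the same direction, as a description of a list drawn up on these libraries. In acute_VCV against control_blank 5 of the 6 genes were called higher, all but Pigr, beside 20.6% of all genes. Group means of Reg3b and Reg3g were at most 6.2 and 5.46 without acute injury. Both thus passed the filter, a mean value of 10 or more over the libraries, only through acutely injured lungs. Their calls are tied to that filter and give no support beside the share of all genes. Leaving out library acute_VCV_045 took Reg3g under the filter on low values, so that 4 were called. In acute_noisy against control_blank 3 were called higher (Lcn2, Slpi and Chi3l1), beside 31.3%, and Reg3b joined them at 3.30 without acute_noisy_046 and at 3.23 without acute_noisy_053. In healthy_VCV against control_blank 3 were called higher (Slpi, Pigr and Chi3l1), beside 29.3%. The Chi3l1 call was lost at 0.76 without control_blank_074, 0.68 without control_blank_021, 0.77 without healthy_VCV_060 and 0.71 without healthy_VCV_062, and Lcn2 was called at 3.65 without control_blank_021 and at 3.53 without healthy_VCV_025. In healthy_noisy against control_blank 2 were called higher (Slpi and Chi3l1), beside 17.5%, the Chi3l1 call being lost at 0.96 without control_blank_021 and at 0.94 without healthy_noisy_029. In chronic_VCV against control_chronic only Slpi was called, beside 6.89%, and its call was lost at 1.53 without chronic_VCV_073, 1.38 without chronic_VCV_067 and 1.59 without control_chronic_116. Chi3l1 was called there as well by DESeq2 (0.84), on reads per library total (0.94) and with only these groups fitted (0.83). In chronic_noisy against control_chronic 3 were called higher (Slpi, Pigr and Chi3l1), beside 19.1%. In control_chronic against control_blank 0 of 6 were called, beside 14.9% of all genes in either direction, with 0 at an unadjusted p under 0.05 and 0 by edgeR or DESeq2. The balance of directions over all genes depended on the scaling in 4 of these 7 comparisons. Of all called genes, 54.5% were higher in healthy_noisy against control_blank, but 67.6% on reads per library total and 42.1% by edgeR. On reads per library total, 72.0% were higher in chronic_VCV, in place of 46.6%, and 66.5% in chronic_noisy, in place of 51.3%, both against control_chronic. In control_chronic against control_blank 62.6% were higher, but 38.4% by edgeR.

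Between ventilated groups, 5 genes were called higher in acute_VCV than in healthy_VCV, beside 26.1% of all genes, and Pigr was called lower, beside 26.4%. Reg3b and Reg3g are among the 5, with the same limit from the filter on low values. Without acute_VCV_045, 3 of the 6 remained called, with Reg3g untested, Lcn2 at 3.45 and Chi3l1 at 0.83. The Lcn2 call was also lost at 3.33 without acute_VCV_049 and at 3.11 without healthy_VCV_025. In acute_noisy against healthy_noisy only Lcn2 was called higher, at 4.42 ± 1.30 and beside 12.9%. That call was lost with the number series as a covariate (3.82), with only these groups fitted (4.42) and with acute_noisy limited to series 15, the series of all healthy_noisy libraries (3.14). It was also lost without acute_noisy_047 (4.31), acute_noisy_050 (3.68), healthy_noisy_061 (3.69) or healthy_noisy_029 (3.47), and 4 genes were called without acute_noisy_053 and 2 without acute_noisy_046. Slpi was called there as well by edgeR (1.34) and DESeq2 (1.26), and Reg3b by edgeR (3.575). With acute_noisy limited to series 14, Reg3b (5.43), Reg3g (3.86), Slpi (1.56) and Chi3l1 (1.00) were also called. In that fit 49.1% of all genes were called in either direction, and the groups lie in different series. Within series 15, where both groups have libraries, the difference of Reg3b was -0.74. In acute_noisy against acute_VCV only Reg3g was called, as lower, beside 12.3%, and neither edgeR nor DESeq2 called any of the 6. The Reg3g call was lost at -3.94 without acute_VCV_040 and at -2.86 without acute_noisy_046 or acute_noisy_053, and Reg3g was untested without acute_VCV_045. The Reg3g call was also lost with only these groups fitted (-3.73) and with acute_noisy limited to series 14 (-1.12). Reg3b was called lower as well, at -4.38 without acute_noisy_047 and at -4.23 without acute_noisy_050. A pseudocount of 10 (-2.10), quantile normalization (-3.37) and acute_noisy limited to series 15 (-6.37) also gave a lower call for Reg3b. Variable against constant ventilation gave 0 of 6 called in uninjured lungs, beside 10.3% of all genes in either direction, and 0 of 6 after chronic injury, beside 2.43%. Chronic against no injury gave 0 of 6 called under constant ventilation, beside 2.46%, and 0 of 6 under variable ventilation, beside 4.69%. In those 4 comparisons edgeR and DESeq2 called 0, and at an unadjusted p under 0.05 limma had 1, in chronic_noisy against chronic_VCV, and 0 in the others. Of all called genes, 49.2% were higher in acute_noisy against acute_VCV, but 62.1% on reads per library total, and 48.2% in acute_noisy against healthy_noisy, but 37.2% on reads per library total and 63.6% by edgeR. In chronic_noisy against healthy_noisy 48.4% were higher, but 61.8% by edgeR. Within series 15, healthy_noisy against the only healthy_VCV library gave -2.40 for Lcn2, 0.10 for Slpi and -0.70 for Pigr, with no test.

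The split of acute_noisy by number series was described for each gene as series 14 minus series 15 on the log2 scale. It was 6.18 for Reg3b and 5.23 for Reg3g, with 6 and 10 of the 14908 tested genes at least as high. Both genes passed the filter on low values only through acutely injured lungs, so these ranks are tied to that filter. The split was 2.57 for Lcn2, 0.95 for Slpi, 0.62 for Chi3l1 and -0.37 for Pigr, where the median of all tested genes was 0.02. The same split in healthy_VCV, with 3 libraries and 1, was 1.81 for Reg3b, 1.18 for Reg3g and -0.62 for Lcn2. Not every gene split in this way between libraries 046 and 053 and libraries 047 and 050. Il24, a cytokine of the IL-20 group, had 462 and 495 in libraries 046 and 053, 856 and 633 in 047 and 050, and 3.99 to 11.4 in control_blank. Prss22, a secreted trypsin-like protease of airways, had 872 and 1411 in 046 and 053, 1426 and 1177 in 047 and 050, and 43.1 to 72.9 in control_blank. Il6 stood between, with 129 and 78.2 in 046 and 053, 1435 and 848 in 047 and 050, and 0.81 to 3.87 in control_blank. The part of the number series in these values was not tested.

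**Figure D3:**
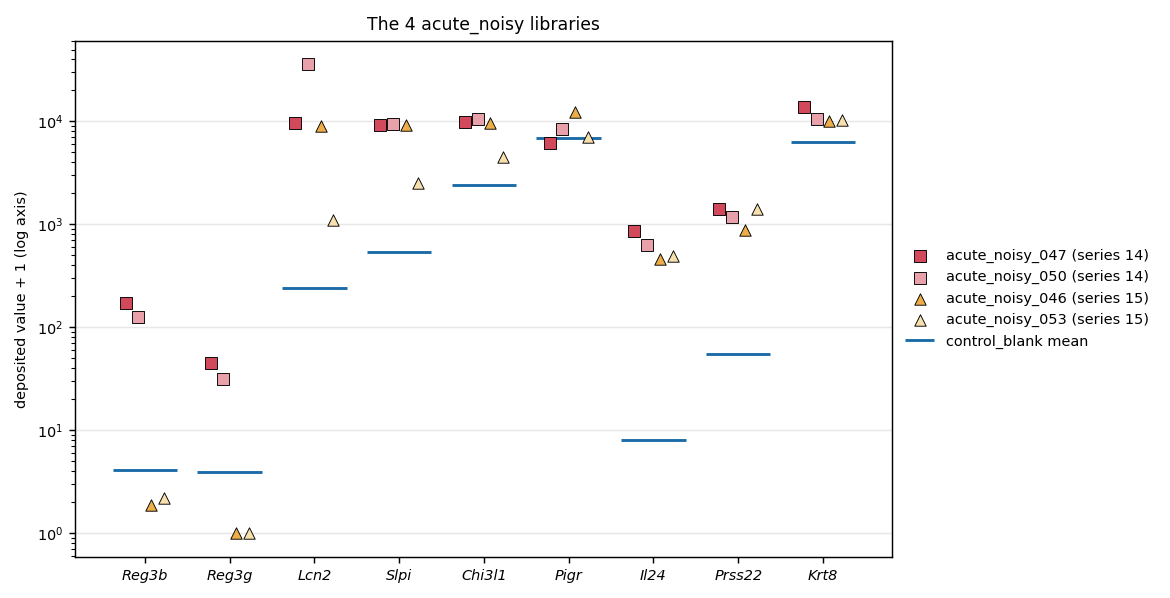
Deposited value + 1, on a log axis, of the 6 genes and of Il24, Prss22 and the epithelial keratin Krt8 in each acute_noisy library, with the control_blank mean as a line. Levels are to be read within a gene. In libraries 046 and 053 Reg3b and Reg3g lie below the control_blank line, while Il24 and Prss22 lie far above it.

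Genes of the signals known to act on these proteins were taken from lists by role and tested in the fit of all genes. There the median log2 difference of all genes was 0.07 for acute_VCV and 0.03 for acute_noisy against control_blank. These lists, and those of partners and cell markers below, were drawn up with earlier results of these data known. Their counts are a description and no independent support, and the genes named are those with the largest differences or direct partners. Of all tested genes, 20.6% rose and 16.7% fell in acute_VCV, and 31.3% rose in acute_noisy, and list counts near these shares are at the background. Of 14 tested genes of IL-1, IL-6 and oncostatin signals, 11 rose and 0 fell in acute_VCV, with a median of 2.44, and 12 rose in acute_noisy. Il6 rose by 7.02 ± 1.28 (limma adjusted p = 0.00020), the oncostatin M receptor Osmr by 3.56 ± 0.60 (limma adjusted p = 9.5e-05) and Il1b by 2.90 ± 0.57 (limma adjusted p = 0.00042) in acute_VCV. Of 9 tested genes of IL-17 and IL-22 ligands and receptors, 3 rose and 1 fell in acute_VCV, with a median of 0.22, close to the shares of all genes, and 1 rose after quantile normalization. Il22 and Il17a were not analysed here. Il24 rose by 7.37 ± 0.79 (limma adjusted p = 1.1e-06). Il17ra, a receptor chain for IL-17, rose by 0.78 ± 0.23 (limma adjusted p = 0.0095), a call that quantile normalization ended at 0.53. Il17b fell by 2.54 on the log2 scale (limma adjusted p = 0.027), a call lost at -2.14 without acute_VCV_045 and at -2.46 without acute_VCV_049, while Il17b was not tested without control_blank_016. Of 16 tested transcription factors and adaptors, 9 rose and 1 fell in acute_VCV, with 0 falling without acute_VCV_045, and 10 rose in acute_noisy. Stat3 rose by 1.64 ± 0.23 (limma adjusted p = 1.5e-05) and its feedback inhibitor Socs3 by 3.90 ± 0.40 (limma adjusted p = 8.0e-07). Tlr2, a receptor for bacterial lipoproteins, rose by 2.62 ± 0.37 (limma adjusted p = 1.9e-05). Nfkbiz, an NF-kB cofactor for Lcn2 in mouse cells, rose by 1.11 ± 0.38 (limma adjusted p = 0.025), and its call was lost at 0.98 without acute_VCV_045, 0.91 without acute_VCV_049, 1.09 without control_blank_016 and 0.98 without control_blank_021.

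Partner genes of each protein were counted in the same way for acute_VCV against control_blank, where 20.6% of all tested genes rose and 16.7% fell. Among 23 tested genes of other secreted antimicrobial proteins, 10 rose and 3 fell, with a median of 0.41, and 10 rose in acute_noisy. The long pentraxin Ptx3 rose by 5.84 ± 0.66 (limma adjusted p = 2.2e-06) and the calprotectin subunit S100a8, which is also in the neutrophil list, by 4.62 ± 0.56 (limma adjusted p = 3.8e-06). Among 17 tested genes of iron and siderophore handling beside Lcn2, 9 rose and 3 fell, with a median of 0.89. The metalloreductase Steap4 rose by 3.80 ± 0.79 (limma adjusted p = 0.00066) and the transferrin gene Tf by 2.12 ± 0.35 (limma adjusted p = 7.1e-05). Slc22a17, described as a receptor for Lcn2, fell by 1.01 on the log2 scale (limma adjusted p = 0.011), a call lost at -0.82 without acute_VCV_049 or without control_blank_016. Lrp2, the other receptor that takes up Lcn2, differed by -0.07 ± 0.46 (limma adjusted p = 0.92) in acute_VCV. Among 13 tested serine proteases and inhibitors beside Slpi, 6 rose and 2 fell, the falling share being close to that of all genes, with a median of 0.36. The inhibitor Serpina3n rose by 5.98 ± 0.77 (limma adjusted p = 7.1e-06), Prss22 by 5.64 ± 0.67 (limma adjusted p = 3.1e-06) and Elane, the neutrophil elastase that Slpi blocks, by 4.54 ± 0.60 (limma adjusted p = 8.6e-06). Among 11 tested IgA transport partners of Pigr, 3 rose and 1 fell, with a median of 0.41. Mal, a membrane protein of apical transport, rose by 1.46 ± 0.38 (limma adjusted p = 0.0047) and Rab3d, a GTPase of secretory vesicles, fell by 0.80 on the log2 scale (limma adjusted p = 0.0014), while Igj, the joining chain of polymeric IgA, differed by -0.24 ± 0.53 (limma adjusted p = 0.75). Among 8 tested chitinases and partners of Chi3l1, 3 rose and 2 fell, with a median of 0.42, and the chitinases Chia, at -1.57 ± 0.43 (limma adjusted p = 0.0063), and Chit1, at -1.16 ± 0.32 (limma adjusted p = 0.0057), were the 2 that fell. The Chia call was lost at -1.06 without control_blank_016 and the Chit1 call at -0.88 without acute_VCV_049. The counts that fell dropped to 1 without control_blank_016 for the antimicrobial, iron, serine protease and chitinase lists, without acute_VCV_045 for the antimicrobial and serine protease lists, and without acute_VCV_049 for the antimicrobial and chitinase lists.

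Markers of cell types also differed between the groups, though not in step with all 6 genes. All 11 neutrophil markers were found, and 9 rose in acute_VCV and 9 in acute_noisy against control_blank, Mmp8, the neutrophil collagenase, by 5.18 in acute_VCV. Their summed value was 29673 to 115743 in acute_VCV and 22924 to 93128 in acute_noisy. After chronic injury it was 9623 to 26179 under constant and 17657 to 32856 under variable tidal volumes, and in uninjured ventilated lungs 19966 to 33173 under constant and 24808 to 32699 under variable tidal volumes. It was 1030 to 3111 in control_chronic and 3044 to 3593 in control_blank, and no library outside control_chronic had a marker at 0. Neutrophils hold Lcn2 and Slpi, and every ventilated library had a higher neutrophil sum than every unventilated one, as it had more Slpi. Lcn2 did not follow in each library, since healthy_noisy_029 had 94.1 of Lcn2. All 4 epithelial markers found (Epcam, Cdh1, Krt8 and Krt19) rose in acute_VCV, with a sum of 47504 to 65436 there, 35007 to 41703 in acute_noisy, 15050 to 33824 in the other ventilated groups, and 21119 to 31210 in control_blank. The acute_noisy libraries with 1 read of Reg3b each, 046 and 053, had an epithelial sum of 35007 and 35805, above every control_blank library. Club and airway secretory markers summed to 187615 to 275458 in acute_VCV and 92044 to 240119 in acute_noisy, against 509069 to 1324574 in control_blank. In acute_VCV the secretoglobin Scgb3a2 fell by 2.12 on the log2 scale (limma adjusted p = 2.7e-05). The 2 ciliated markers found summed to 582 to 1006 in acute_VCV and 243 to 768 in acute_noisy, against 2754 to 6431 in control_blank. The 4 alveolar type 1 markers summed to 76251 to 91477, 43210 to 68229 and 92633 to 106957 in the same groups. The ciliated genes Dynlrb2 (-2.47) and Tekt1 (-1.69) and the alveolar type 1 gene Aqp5 (-1.38) were called lower in acute_VCV. Exocrine pancreas markers, sought because the family name of the Reg genes points to the pancreas, summed to 205 to 247 in acute_VCV and 320 to 517 in control_blank. Cela1 alone had 111 to 177 of the acute_VCV sums, and Cpa1 had 0 to 15 reads per library there. The part of neutrophil, epithelial, airway and exocrine pancreas cells in the levels of the 6 genes was not tested.

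**Figure D4:**
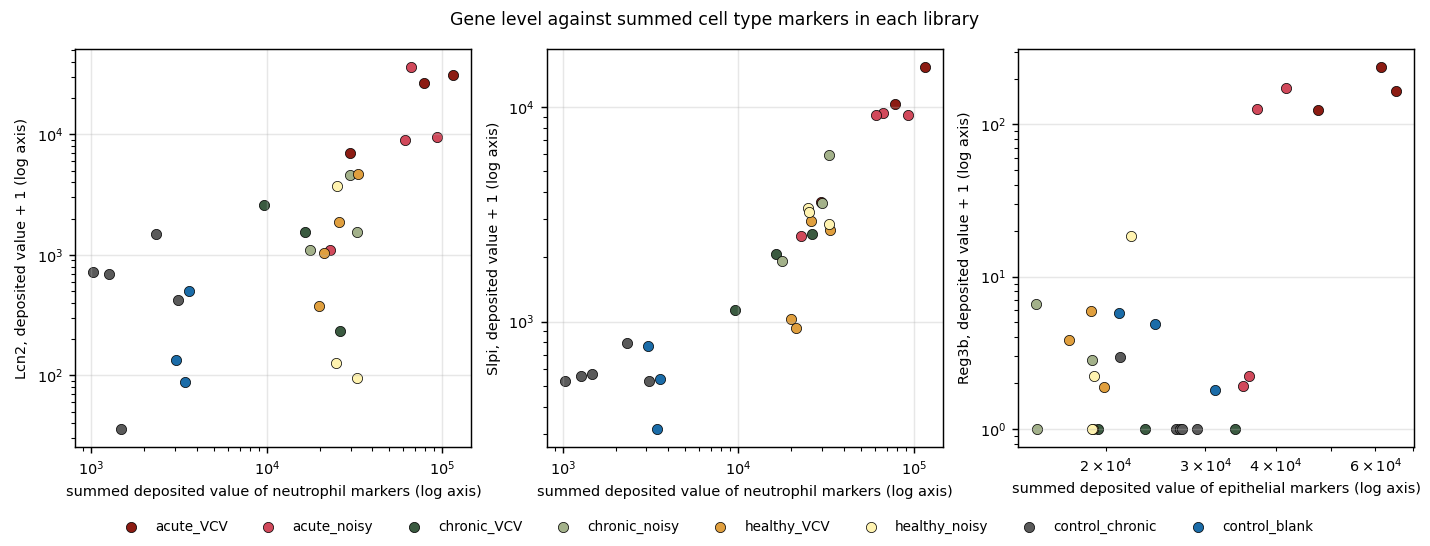
Deposited value + 1 of Lcn2 and Slpi against the summed value of 11 neutrophil markers, and of Reg3b against the summed value of 4 epithelial markers, all on log axes, with a point for each of the 28 libraries coloured by group. Unventilated libraries form a separate low set for Slpi, and 2 acute_noisy libraries lie near 35007 on the epithelial axis with Reg3b at 0.90 and 1.22.

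Genes most like each member were found by the root mean square difference of log2(value + 1), centred on its mean, over the 28 libraries among 10789 genes with symbols, where a smaller value is closer. For Reg3b they were Fgf23 (1.32), Timp1 (1.41) and Reg3g (1.43), beside a spread of Reg3b itself of 2.63 on this measure. Reg3g was closest to Gfap (1.43), Reg3b (1.43) and Cyp7b1 (1.49), beside 2.16. Lcn2 was closest to Sectm1b (1.42), Serpina3n (1.44) and Nr5a2 (1.51), beside 2.60. Slpi was closer to its nearest genes, Ceacam10 (0.49), Ltb4r (0.50) and Sod2 (0.50), beside 1.53. Chi3l1 was closest to Fbxl5 (0.27), Ptpn1 (0.30) and Mov10 (0.32), beside 0.82, and Pigr to Slc34a2 (0.24), Pls1 (0.25) and Dbt (0.25), beside 0.45. Among the members, Reg3b and Reg3g were each in the nearest 3 of the other, which was true of no other pair.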

How the data were processed

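Poly(A) RNA, selected with oligo(dT) beads, was made into strand-specific libraries by the dUTP method and sequenced on a HiSeq 2000, per the labels' protocols. The submitters' processing notes name CASAVA 1.8.0, BWA, bedtools 2.11, DESeq 1.8.3 and the build rn4 without roles, and the file header names Ensembl 67. The deposited signal per gene and library is reads that the authors divided by 1 size factor per library, which was checked on the values: 100.0% of values in each library are whole multiples of 1 step within 0.1 read, and dividing by that step recovered reads. Of 17002 genes, 489 have no name, and all value columns were used. No replicates held the same counts, with a smallest chi-square per gene of 16.4 between replicates.

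Members and gene lists were chosen with earlier results of these data known. The 14908 genes whose deposited values averaged 10 or more over the libraries, with all 6 members, were fitted as log2(value + 1) with limma 3.58.1 in R 4.3.3, with trend and robust options and a mean for each of 8 groups. Tests were two-sided with Benjamini-Hochberg adjustment over all tested genes at 0.05. A log2 difference on this scale understates changes of low genes. Replicates are samples that the labels list apart, so p-values measure the spread between samples, which may be technical in part. Alternatives were a pseudocount of 10, no filter, quantile normalization, reads per library total, edgeR 4.0.16 and DESeq2 1.42.0 on recovered reads (rounded to whole counts), the number series as a covariate, the compared groups alone, and leaving out each library. Added after seeing the data were fits with acute_noisy limited to a number series and without the 2 control_chronic libraries of lowest depth. The fit was tested on simulated data. Lists are given by counts and medians, with values for up to 4 genes a list past the threshold with the largest difference in acute_VCV against control_blank, for direct partners, and for the 3 genes nearest to each member. Intervals for counts of 0 use 3 reads and cover counting error only. Promoter windows are RefSeq on GRCr8, a build other than that of the files, and serve for sequence only. Figures used matplotlib 3.10.9.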

Additional observations from a re-analysis of the deposited data

Results flagged for a closer look

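In groups of 4 or 5 libraries, 18 member and group pairs were checked for a library far from the others, of which chance flags about 1 in 20, and 4 stood out. Library acute_noisy_053 was the low one of its group for Slpi, at 2502.12, and for Chi3l1, at 4539.75, while its 3 companions had 9152 to 9389 of Slpi and 9711 to 10458 of Chi3l1. The neutrophil marker sum of that library, 22924, was also the lowest of acute_noisy. Library control_chronic_114 was the high one of its group for Slpi, at 791.07, and for Reg3b, at 1.98, which is 1 read where the other 4 libraries had 0. In the comparison of ventilation modes, every chronic_noisy library had more Reg3g than every chronic_VCV library, while every acute_noisy library had less than every acute_VCV library. These log2 differences of 1.22 and -3.73 lie 4.95 apart. That difference was not tested, and the chronic libraries hold 5 reads in all in chronic_noisy and 0 in chronic_VCV. Every chronic_noisy value lay below the value of 3 reads in each chronic_VCV library, which a count of 0 there allows. In both comparisons the groups had no number series in common, so ventilation mode and series cannot be told apart.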

How the results depend on the processing

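No called log2 difference of a member or named gene changed sign under the alternatives run. No paired analysis was possible because the compared groups share no replicate numbers. The share of tested genes called moved by over 1.5 times in these cases. With only the compared groups fitted, it was 24.5% against 37.3% in acute_VCV against control_blank, 14.049% against 32.1% in healthy_noisy against control_blank, 5.90% against 14.9% in control_chronic against control_blank, 26.4% against 10.3% in healthy_noisy against healthy_VCV, 0% against 24.2% in acute_noisy against acute_VCV (4166 genes at an unadjusted p under 0.05 by limma), 0.203% against 2.43% in chronic_noisy against chronic_VCV, 0.054% against 26.7% in acute_noisy against healthy_noisy, 8.47% against 2.46% in chronic_VCV against healthy_VCV and 12.2% against 4.69% in chronic_noisy against healthy_noisy. With the number series as a covariate in limma it was 0% in healthy_noisy against healthy_VCV (1582 genes at an unadjusted p under 0.05), 0.0604% in chronic_noisy against chronic_VCV, 4.91% in acute_noisy against healthy_noisy, 0.0134% in chronic_VCV against healthy_VCV and 0.00671% in chronic_noisy against healthy_noisy. DESeq2 gave 18.004% in healthy_noisy against healthy_VCV, 7.73% in chronic_noisy against chronic_VCV, 9.55% in chronic_VCV against healthy_VCV and 12.7% in chronic_noisy against healthy_noisy. Quantile normalization gave 4.602% in chronic_VCV against healthy_VCV and 8.08% in chronic_noisy against healthy_noisy. Limited to series 14, acute_noisy gave 38.6% against acute_VCV and 49.1% against healthy_noisy, and limited to series 15 it gave 13.7% and 1.03%. Without the 2 control_chronic libraries of lowest depth, chronic_VCV against control_chronic gave 9.35%, and control_chronic against control_blank gave 4.73%.

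Leaving out 1 library gave 25.02% to 39.7% in acute_VCV, 48.8% to 62.9% in acute_noisy and 44.5% to 58.1% in healthy_VCV against control_blank, and 46.005% to 49.5% in acute_VCV against healthy_VCV. In healthy_noisy against control_blank it gave 17.9% (without control_blank_016) to 36.3%, with 18.8% without healthy_noisy_029. In chronic_VCV against control_chronic it gave 7.92% (without chronic_VCV_069) to 13.9%, with 9.40% without chronic_VCV_073. In chronic_noisy against control_chronic it gave 19.7% (without chronic_noisy_084) to 36.1%. In control_chronic against control_blank it gave 1.37% (without control_blank_016) to 24.4% (without control_blank_074), with 7.95% without control_blank_021, 9.86% without control_chronic_113 and 7.62% without control_chronic_117. In acute_noisy against acute_VCV it gave 5.23% (without acute_VCV_040) to 33.0%, with 14.8% without acute_noisy_050. In acute_noisy against healthy_noisy it gave 10.4% (without acute_noisy_047) to 41.2% (without acute_noisy_053), with 11.5% without acute_noisy_050, 11.03% without healthy_noisy_061 and 15.1% without healthy_noisy_029. In healthy_noisy against healthy_VCV it gave 0.00671% to 13.3%, with at most 0.121% without healthy_noisy_029 or 061 or healthy_VCV_025, 057 or 060, and 3.21% without healthy_VCV_062. It gave 0.0537% to 4.71% in chronic_noisy against chronic_VCV, 0.0134% to 7.01% in chronic_VCV against healthy_VCV and 0.0201% to 7.81% in chronic_noisy against healthy_noisy, where most single libraries moved it over 1.5 times.

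Against control_blank, edgeR and DESeq2 also called Reg3b in acute_noisy (4.54 and 4.57) and Lcn2 in healthy_VCV (3.06 by DESeq2). The Slpi call in chronic_VCV was lost, at 1.76, without the 2 libraries of lowest depth. The cause of these moves was not tested. Depth limits Reg3b and Reg3g, which had 0 to 17 reads per library outside acute injury.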
